A study of Mus musculus with 46 samples.

Results

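Beta cell disallowed genes are widely expressed genes whose transcripts are kept at very low levels in pancreatic β-cells. The members described here were 9 genes chosen by symbol, namely Slc16a1, Acot7, Rest, Pdgfra, Igfbp4, Smad3, Cxcl12, Mgst1 and Zyx, out of 55487 features in each file. By GRCm38 coordinates, the gene bodies lie at chr3:104638668-104658462 (Slc16a1), chr4:152178134-152271855 (Acot7), chr5:77265491-77286432 (Rest), chr5:75152292-75198215 (Pdgfra), chr11:99041244-99054392 (Igfbp4), chr9:63646767-63757994 (Smad3, minus strand), chr6:117168535-117181367 (Cxcl12), chr6:138140316-138156755 (Mgst1) and chr6:42349630-42360213 (Zyx), the others on the plus strand. Each symbol matched 1 feature, and all 9 passed the filter on low counts in both islet experiments. RNA was measured in 33 mouse islet libraries. In the first experiment, islets labelled Tfam control (5 female and 3 male libraries) were compared with islets labelled Tfam KO (4 female and 2 male). Tfam encodes a factor that packages and transcribes mitochondrial DNA. In the second, islets labelled Clec control and Clec KO, for Clec16a, a gene whose product acts in the removal of damaged mitochondria, came from 2 diets given as RFD (4 control and 4 KO libraries) and HFD (6 control and 5 KO). The labels do not write the diets out, and they give no strain, age, Cre driver or floxed allele for any group, and no sex for the Clec16a islets. All islets were kept in culture overnight, so every group shares that step. Labels call the libraries biological replicates without naming animals, so p-values measure the spread between these libraries. The 6 libraries of control liver, whose names carry the letters AAV, serve only as a second tissue set side by side.

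In mature β-cells, glucose should be the fuel that sets insulin release, and genes that would let other fuels or signals enter are held down. Slc16a1 encodes the plasma membrane carrier MCT1 for lactate and pyruvate, and its silence keeps circulating pyruvate from triggering insulin release. Acot7 hydrolyses long-chain acyl-CoA, and Mgst1 is a membrane-bound glutathione transferase and peroxidase. Rest is a repressor of neuronal and secretory genes, many of which β-cells use. Smad3 carries signals from TGF-β receptors to the nucleus, Pdgfra is a receptor for platelet-derived growth factors, Cxcl12 is a chemokine, Igfbp4 binds insulin-like growth factors and Zyx (zyxin) sits at focal adhesions and actin fibres. Most of these genes are active in the endothelial, stromal, immune or exocrine cells that accompany islets, so whole-islet RNA mixes their signal with that of β-cells.

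Total counts ran from 55223041 to 83342809 per library in the Tfam islets and from 16235173 to 55810879 in the Clec16a islets. Tfam itself fell from 39.8 ± 2.26 CPM (SD, n = 8) in control to 17.2 ± 1.11 CPM (n = 6) in Tfam KO islets, where CPM is the usual depth-scaled count, here on TMM-scaled library sizes. The log2 fold change was -1.21 (SE 0.06, adjusted p = 3.76e-10 by the quasi-likelihood test of edgeR). Clec16a RNA was not lower in islets labelled Clec16a KO: the log2 fold change was 0.13 (SE 0.13) on RFD and 0.08 (SE 0.11) on HFD. Whether the counts cover the deleted part is not given in the sources used here, so these libraries are called by their label throughout. All 8 β-cell markers checked were detected in every islet library. All 8 fell in Tfam KO islets (median log2 fold change -0.77). Their sums ran from 105143 to 140851 CPM in Tfam KO and from 187733 to 293881 CPM in control islets, with no overlap. In islets labelled Clec16a KO, 2 of 8 fell on each diet. The part of this change in the results on disallowed genes was not tested.

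The disallowed genes lay far below β-cell genes in control islets. On the authors' TPM scale, which accounts for transcript length, the means over 18 control islet libraries were 4.69 ± 1.67 (SD) for Zyx, 4.04 ± 1.51 for Acot7 and 3.95 ± 2.85 for Igfbp4. Smad3 followed at 2.21 ± 0.356, Mgst1 at 1.20 ± 0.409 and Cxcl12 at 1.06 ± 0.694. Rest lay at 0.469 ± 0.149, Slc16a1 at 0.453 ± 0.148 and Pdgfra at 0.0438 ± 0.0482. Neighbours in this order overlapped in their library ranges, except that Pdgfra lay below Slc16a1 in every library. Pdx1, a β-cell transcription factor, averaged 190 TPM in the same libraries, and Mafa, a maturity factor, 479 TPM. These 2 lay above 99.2% and 99.7% of the 33965 genes with any count in control islets. Most members were not at the bottom of that ranking by mean TPM. Zyx lay above 71.1% of the genes, Acot7 above 69.8%, Igfbp4 69.6%, Smad3 65.2%, Mgst1 60.8% and Cxcl12 59.8%. Rest lay above 53.2%, Slc16a1 above 53.0% and Pdgfra above 30.4%. Pdgfra rested on 1 to 47 counts per islet library, which limits what can be seen of it.

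All 9 genes were higher in control liver than in control islets, with no overlap between the libraries of the tissues. Smad3 showed the smallest ratio of means, 2.48, and Zyx the next, 3.39. Slc16a1 stood at 17.9 ± 4.37 TPM (n = 6) in liver, 39.6 times its islet mean. Mgst1 reached 2410 ± 407 TPM in liver, 2013 times its islet mean, and Igfbp4 1242 ± 80.6 TPM, 314 times. TPM is a share of all transcripts in a library. Insulin transcripts held a mean of 36.3% of it in Tfam control islets, 38.9% in RFD controls and 40.9% in HFD controls. In control liver Ins1 averaged 0 and Ins2 0.0118 TPM. The ratios were not corrected for this, and it lowers every other gene in islets on the TPM scale. Tissue and experiment cannot be told apart here, and no test was made. In bulk RNA, fewer cells of a type and less RNA per cell cannot be told apart either.

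**Figure D1:**
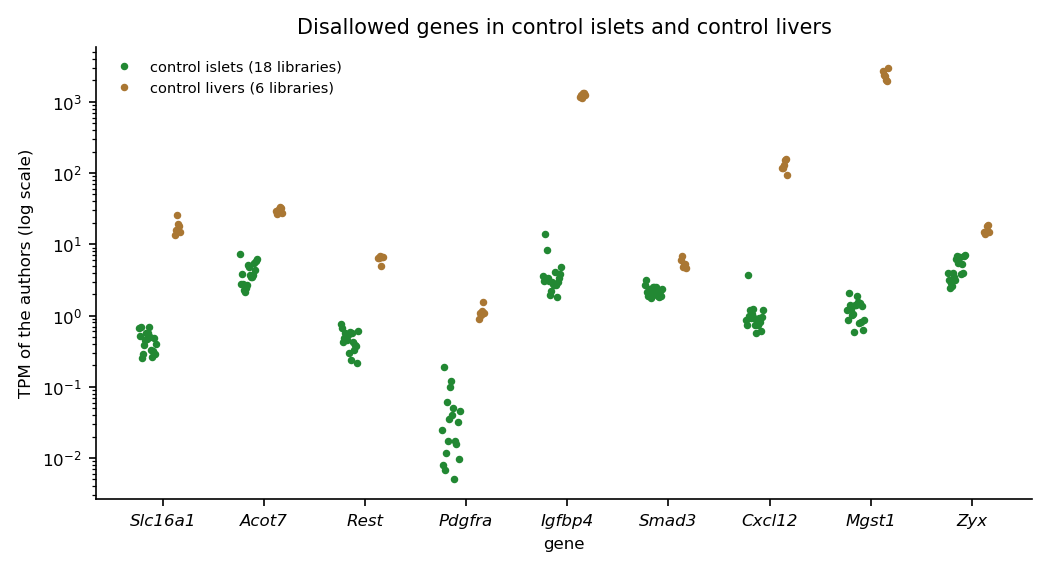
TPM of the authors on a log axis for the 9 disallowed genes, 1 point per library, in 18 control islet libraries (green) and 6 control liver libraries (brown). Every liver point lies above every islet point of the same gene, by the smallest ratio of means for Smad3 (2.48) and the largest for Mgst1 (2013).

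Promoter sequence is printed for the members that passed over both Tfam sexes or in the Clec16a islets, and for Slc16a1 as the best known disallowed gene. RefSeq promoters of GRCm38.p6 were found for 8 of the 9 genes, Rest being the one without. The bases directly before the start are printed 5′ to 3′ on the strand of the gene, only as far as neither RefSeq nor GENCODE places a transcript there. Capitals mark the GC box GGGCGG, the E-box CACGTG and the TATA box TATAAA on either strand; CCAAT and TGATGNAA were searched too. The Slc16a1 bases lie at chr3:104638414-104638663 (plus strand), those of Igfbp4 at chr11:99040994-99041243 (plus), those of Smad3 at chr9:63757995-63758244 (minus) and those of Zyx at chr6:42349578-42349629 (plus).
Slc16a1: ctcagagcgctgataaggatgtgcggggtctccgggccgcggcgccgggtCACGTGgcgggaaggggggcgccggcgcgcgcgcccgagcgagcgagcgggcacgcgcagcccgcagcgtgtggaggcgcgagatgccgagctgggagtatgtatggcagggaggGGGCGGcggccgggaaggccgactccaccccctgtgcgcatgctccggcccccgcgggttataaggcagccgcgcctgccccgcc
Igfbp4: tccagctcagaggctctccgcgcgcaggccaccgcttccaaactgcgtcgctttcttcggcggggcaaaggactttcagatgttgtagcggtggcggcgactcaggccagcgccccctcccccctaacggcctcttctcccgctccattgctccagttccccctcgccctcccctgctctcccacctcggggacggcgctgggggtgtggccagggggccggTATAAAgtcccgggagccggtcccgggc
Smad3: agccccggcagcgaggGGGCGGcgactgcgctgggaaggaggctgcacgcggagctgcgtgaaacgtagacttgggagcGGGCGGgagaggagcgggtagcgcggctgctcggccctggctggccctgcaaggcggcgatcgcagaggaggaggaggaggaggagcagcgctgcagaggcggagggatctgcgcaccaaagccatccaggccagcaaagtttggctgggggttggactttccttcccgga
Zyx: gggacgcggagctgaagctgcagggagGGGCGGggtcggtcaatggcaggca
Over the 250 bases before the RefSeq start, Cxcl12 held 5 GC boxes, the most, and Smad3, Zyx and Acot7 each held 2. Slc16a1 and 1 of the 2 Mgst1 windows held 1, and Pdgfra held none. Of the 2 in Zyx, 1 lay in the 52 bases before both starts. The Acot7 window, chr4:152185358-152185607, lay wholly inside the GENCODE gene, which starts at 152178134, so both its matches may be within transcribed sequence. The Mgst1 match lay past the 39 bases before both starts. At least 1 GC box occurred in 32.7% of 32851 RefSeq promoters of that length. The Slc16a1 window also held the E-box, found in 6.02% of promoters. Igfbp4 held no GC box and had the TATA box, found in 12.4%. Neither CCAAT (33.8% of promoters) nor TGATGNAA (3.45%), the core of elements bound by ATF4 and C/EBP dimers, occurred in the windows of the 8 genes. Their GC content ran from 44% in one of the 2 Mgst1 windows to 76.4% in Slc16a1. These are letter matches in a short window and were not tested for binding.

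In Tfam KO islets Zyx rose and Smad3 fell relative to control, while the remaining 7 genes did not pass the test: 2 of 9 members passed (adjusted p at or below 0.05), against 20.9% of all 19752 genes tested. The median log2 fold change of the members was -0.02, beside -0.01 for all genes. In females 7 of 9 estimates were below 0 and 1 gene (Zyx) passed, against 10.8% of all genes, while in males 8 of 9 were above 0 and 1 gene (Mgst1) passed, against 8.93% of all genes. These counts of genes that passed stood near the shares of all genes and are not read as a result about the members as a set. The authors' TPM shifted all genes upward in Tfam KO islets, by a median log2 ratio of 0.38 over 19723 genes. Insulin transcripts held 23.9 ± 2.08% of TPM (SD, n = 6) in Tfam KO and 36.3 ± 4.13% (n = 8) in control islets. On that scale 4 of 9 members had a higher mean in Tfam KO females and 9 of 9 in Tfam KO males.

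**Figure D2:**
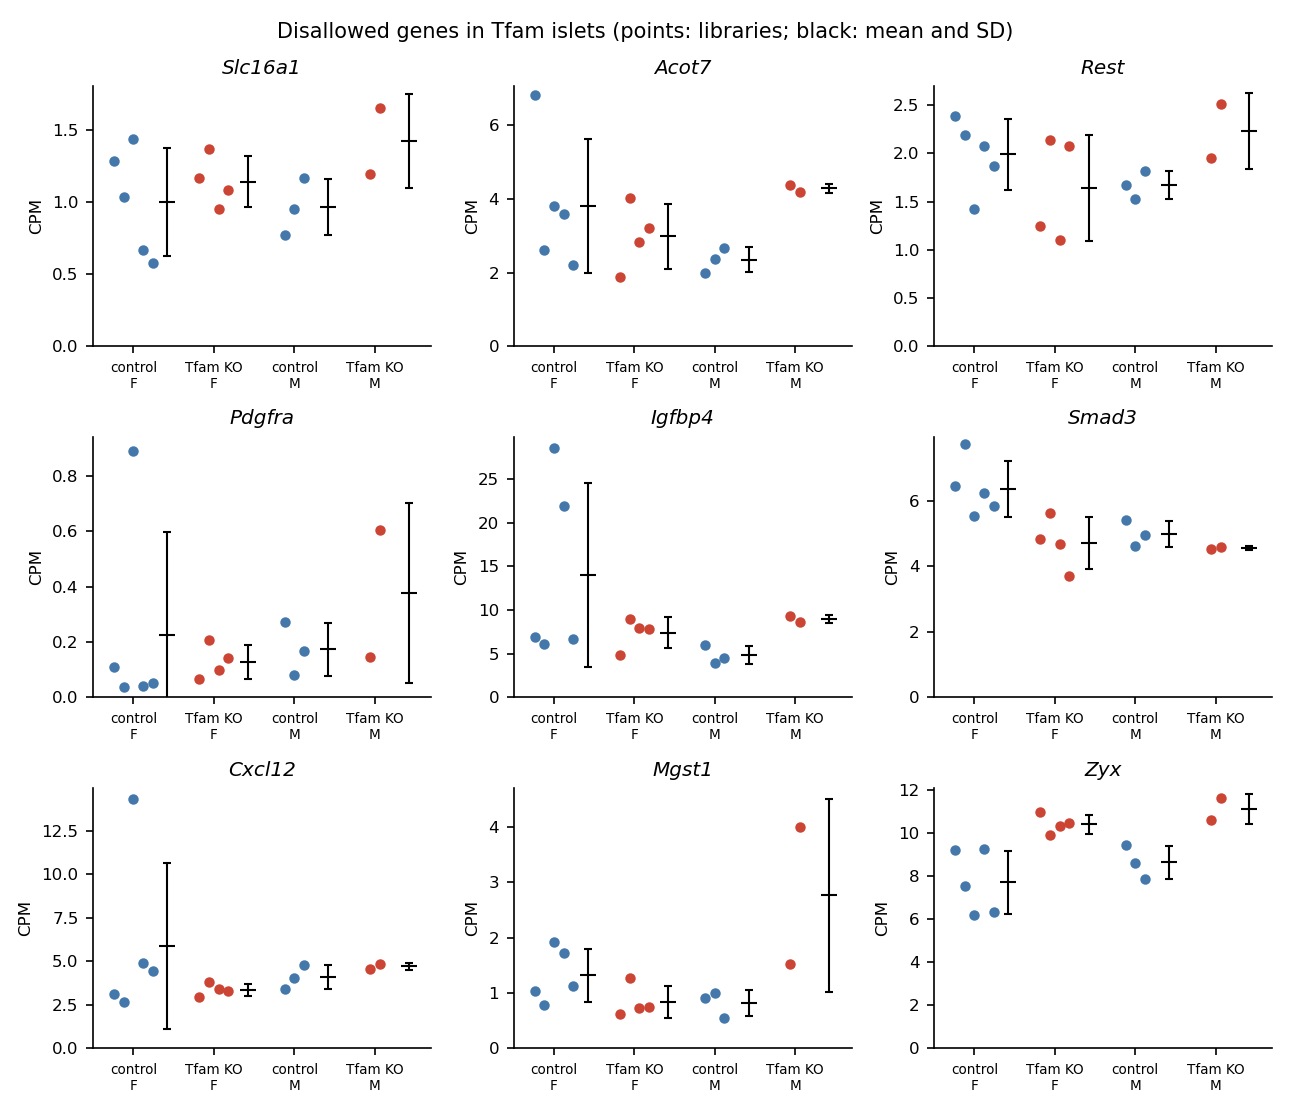
CPM of the 9 disallowed genes in Tfam islets, 1 blue point per control and 1 red point per Tfam KO library, females (F) and males (M) apart; black marks give mean and SD, cut at 0. The red Zyx points lie above all blue ones. For Cxcl12 1 control female stands far above the rest, and for Igfbp4 2 do. For Pdgfra 1 control female, at 0.889 CPM, stands far above the other control females, and 1 Tfam KO male lies next at 0.607 CPM.

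Zyx is the cytoskeletal member of the group. Control females lay at 9.22, 7.55, 6.22, 9.26 and 6.34 CPM, and control males at 9.44, 8.63 and 7.90. Tfam KO females lay at 11.0, 9.91, 10.3 and 10.5, and Tfam KO males at 10.6 and 11.6. Every Tfam KO library was thus above every control library of either sex. The log2 fold change was 0.41 (SE 0.10, 95% interval 0.22 to 0.60, edgeR adjusted p = 0.00689), and the call held in each of 23 alternatives, with adjusted p from 0.000538 to 0.0306. On the TPM scale the ratio of means was 0.79 on the log2 scale, beside the shift of 0.38 in all genes. Females alone gave 0.44 (SE 0.13, adjusted p = 0.0368) and males alone 0.36 (SE 0.17, adjusted p = 0.208), and the interaction with sex was -0.07 (SE 0.21). In females the call was lost without any 1 of control replicates 2, 3 or 5 or of the 4 Tfam KO libraries, with adjusted p from 0.0578 to 0.0957. Zyx overlaps Epha1 on the opposite strand, and whether strand was used in counting is not given in the sources used here.

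Smad3, the signal carrier of TGF-β, was lower in Tfam KO islets by a narrow margin. It lay at 6.45, 7.74, 5.54, 6.24 and 5.82 CPM in control females and at 4.83, 5.62, 4.68 and 3.69 in Tfam KO females. Control males had 5.41, 4.61 and 4.94 CPM, and the 2 Tfam KO males 4.52 and 4.60. Female groups overlapped by 1 Tfam KO library, and male groups lay next to each other without overlap. On the log2 scale the fold change was -0.33 (SE 0.11, edgeR adjusted p = 0.0497). This call was lost in 17 of 23 alternatives, with adjusted p up to 0.214 with the mesenchymal marker score in the fit, and without 11 of the 14 libraries in turn, from 0.0548 to 0.114. The exceptions were control female replicate 3, control male replicate 2 and Tfam KO female replicate 2. On the TPM scale the direction turned, with 2.34 ± 0.324 (n = 6) against 2.25 ± 0.455 (n = 8), a log2 ratio of 0.06 beside the shift of 0.38.

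Among the metabolic members, Mgst1 passed only in males, where it lay at 0.902, 0.991 and 0.546 CPM in controls and at 1.53 and 4.0 in Tfam KO. Both Tfam KO males were above the controls, by very different amounts. Their log2 fold change was 1.76 (SE 0.45, edgeR adjusted p = 0.0223, n = 2 against 3). Without Tfam KO male replicate 2, the library at 4.0 CPM, it was 0.91 with an adjusted p of 0.416, and without control male replicate 3 the adjusted p was 0.0855. With the endothelial score in the fit it was 0.0937. Females gave -0.64 (SE 0.35, adjusted p = 0.275), with control libraries at 1.03, 0.783, 1.93, 1.72 and 1.12 CPM and Tfam KO libraries at 0.613, 1.27, 0.722 and 0.744. The effect in males less that in females was 2.40 (SE 0.57, unadjusted p = 0.000712, adjusted p = 0.542 by edgeR).

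Slc16a1, the lactate and pyruvate carrier, lay at 1.29, 1.03, 1.44, 0.663 and 0.579 CPM in control females and at 1.16, 1.37, 0.952 and 1.08 in Tfam KO females. Control males had 0.773, 0.951 and 1.16 CPM, and Tfam KO males 1.19 and 1.65. Male groups did not overlap and female groups did. Over both sexes its log2 fold change was 0.33 (SE 0.21, 95% interval -0.09 to 0.75, adjusted p = 0.318). Acot7, the acyl-CoA thioesterase, gave 0.10 (SE 0.27, interval -0.43 to 0.62). Its 2 Tfam KO males, at 4.38 and 4.21 CPM, were above the 3 control males, between 2.0 and 2.67, while 1 control female stood highest of all at 6.83.

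The repressor Rest gave a log2 fold change of -0.02 over both sexes (SE 0.19, interval -0.40 to 0.35), with controls between 1.42 and 2.39 CPM and Tfam KO islets between 1.10 and 2.51. The extracellular and receptor members were set mainly by single libraries. Control female replicate 3 held 28.6 CPM of Igfbp4, 14.3 of Cxcl12 and 0.889 of Pdgfra, and control female replicate 4 held 22.0 of Igfbp4. In the other 3 control females Igfbp4 lay between 6.05 and 6.90 CPM, near the Tfam KO females at 4.88, 8.97, 7.96 and 7.86. The log2 fold change of Igfbp4 over both sexes was -0.26 (SE 0.40, adjusted p = 0.712), and without control female replicate 3 it was 0.04. Pdgfra changed from -0.03 (SE 0.70) to 1.10 without that library, adjusted p = 0.0971. Cxcl12 gave -0.44 (SE 0.32, edgeR adjusted p = 0.385), and -0.025 without control female replicate 3. Control female replicates 3 and 4 also had the highest summed endothelial markers of their group (339 and 330 CPM, others 258 to 295). Replicate 3 had the highest summed mesenchymal markers (104 CPM, other control females 37.8 to 65.8) and macrophage markers (178 CPM, others 97.4 to 143) of the control females. The part of these cells in the values was not tested.

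Markers of several other cell types, but not of all, stood higher in Tfam KO males than in control males. The 8 mesenchymal markers summed to 96.6 and 98.6 CPM in Tfam KO males and 41.9 to 58.6 in control males, and 3 of 8 rose. The 6 macrophage markers summed to 161 and 167 CPM against 94.3 to 103, and 2 of 6 rose. In females the mesenchymal sums overlapped, 56.1 to 93.6 CPM in Tfam KO and 37.8 to 104 in control. With the mesenchymal score in the fit, Mgst1 in males was 1.22 with an adjusted p of 0.347, and Cxcl12 over both sexes was -1.02 with an adjusted p of 0.00142, while Zyx stayed called at 0.54. The 6 duct markers summed to 336 and 404 CPM in Tfam KO males against 250 to 269 in control males, and 3 of 6 rose; in females they summed to 292 to 322 CPM in Tfam KO and 220 to 332 in control. The endothelial markers summed to 340 and 350 CPM in Tfam KO males against 294 to 335 in control males, and 1 of 6 rose, while in females the sums overlapped, at 267 to 333 CPM against 258 to 339. The 5 alpha cell markers summed to 51591.5 and 38687.6 CPM in Tfam KO males against 24675 to 34367.9 in control males, without overlap. The 5 neural crest markers summed to 29.98 and 21.73 CPM against 17.04 to 18.59, also without overlap. In each of these lists 0 of 5 markers passed in males, and the sums overlapped in females. Acinar and delta cell marker sums overlapped in males. The acinar sums were 15784.5 and 3100 CPM in Tfam KO against 1899 to 5748 in control males. For delta cells they were 3188 and 2621.5 CPM against 2396 to 3419. The part of any of these cells in the Mgst1 result was not tested beyond the scores given here.

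Of 14 other genes held down in β-cells, 2 rose, against 20.9% of all genes called in either direction. Lmo4, a LIM domain protein, rose in Tfam KO islets by 0.41 on the log2 scale (SE 0.11, edgeR adjusted p = 0.0159), from 5.20 ± 0.691 CPM (n = 8) to 6.92 ± 1.09 CPM (n = 6). The median log2 fold change of the 14 genes of that list was 0.09, beside -0.01 for all genes.

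Genes from the pathways and families of the members are given by list for Tfam KO islets. Since 20.9% of all genes were called in this comparison, the counts are descriptions, and no list is read as standing apart. Of 7 genes of lactate and pyruvate handling, 2 fell: Ldhb, a lactate dehydrogenase subunit, from 13.9 ± 2.14 to 10.5 ± 0.498 CPM (log2 -0.40, adjusted p = 0.00765), and Bsg (basigin), the chaperone of MCT1, from 565 ± 86.9 to 467 ± 18.7 CPM (-0.28, adjusted p = 0.0254). Of 6 other acyl-CoA thioesterases, Acot2 (0.41) and Acot9 (0.39) rose and Acot11 (-0.36) fell. Among 9 corepressors of REST, Rcor2 rose (0.50) while Hdac1 (-0.33) and Kdm1a (-0.23) fell. Of 10 genes that REST is known to repress, Syt4 rose (0.38) and 3 fell, namely Chga (-0.83), Gjd2 (-0.40) and Snap25 (-0.39). Smad7, the inhibitor of TGF-β signalling, was the 1 of 9 pathway genes that passed, and fell by 0.33 (adjusted p = 0.00686). Of 9 genes of insulin-like growth factor signalling, Igfbp5 (0.74), Igfbp3 (0.23) and the receptor Igf1r (0.34) rose and Igfbp7 fell (-0.32). In the family and partners of zyxin, Lpp rose (0.37) and Wtip fell (-0.53), of 8 genes. No gene passed in the 5 PDGF genes (median 0.11), the 2 receptors of CXCL12 (0.06) or in Mgst2 and Mgst3 (0.25) by edgeR at the adjusted threshold. These values are on the TMM scale, and the shift of 0.38 in all genes applies to them on the TPM scale too.

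In islets labelled Clec16a KO, Igfbp4 was the only member that passed, and it was higher than in control islets on both diets. On RFD 1 of 9 members was called, against 7.52% of 17254 genes tested, and on HFD 1 of 9, against 9.57%. Both counts stood near the share of all genes and are not read as a result about the members as a set. The members' median log2 fold change was 0.47 on RFD and 0.19 on HFD, with values near 0 for all genes in both. The HFD median ran from 0.044 without labelled KO replicate 2 to 0.32 without control replicate 1, and was also 0.13 without control replicate 4 or labelled KO replicate 1. With the mesenchymal score in the fit it was -0.084, and with the endothelial score the medians were -0.18 on RFD and -0.26 on HFD. Some marker lists had larger medians than the members. On RFD and HFD these were 0.71 and 0.52 for endothelial and 0.58 and 0.65 for mesenchymal markers. Alpha markers gave 0.32 and 0.20, duct 0.73 and -0.05, macrophage -0.11 and 0.02, and neural crest -0.01 and 0.48. Medians of β-cell, delta and acinar markers were below 0 on both diets. Zyx pointed upward on both diets without passing. Insulin transcripts held 33.5 ± 2.48% of TPM (n = 4) in labelled KO and 38.9 ± 6.27% (n = 4) in control islets on RFD, and 32.7 ± 5.37% (n = 5) and 40.9 ± 2.54% (n = 6) on HFD.

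**Figure D3:**
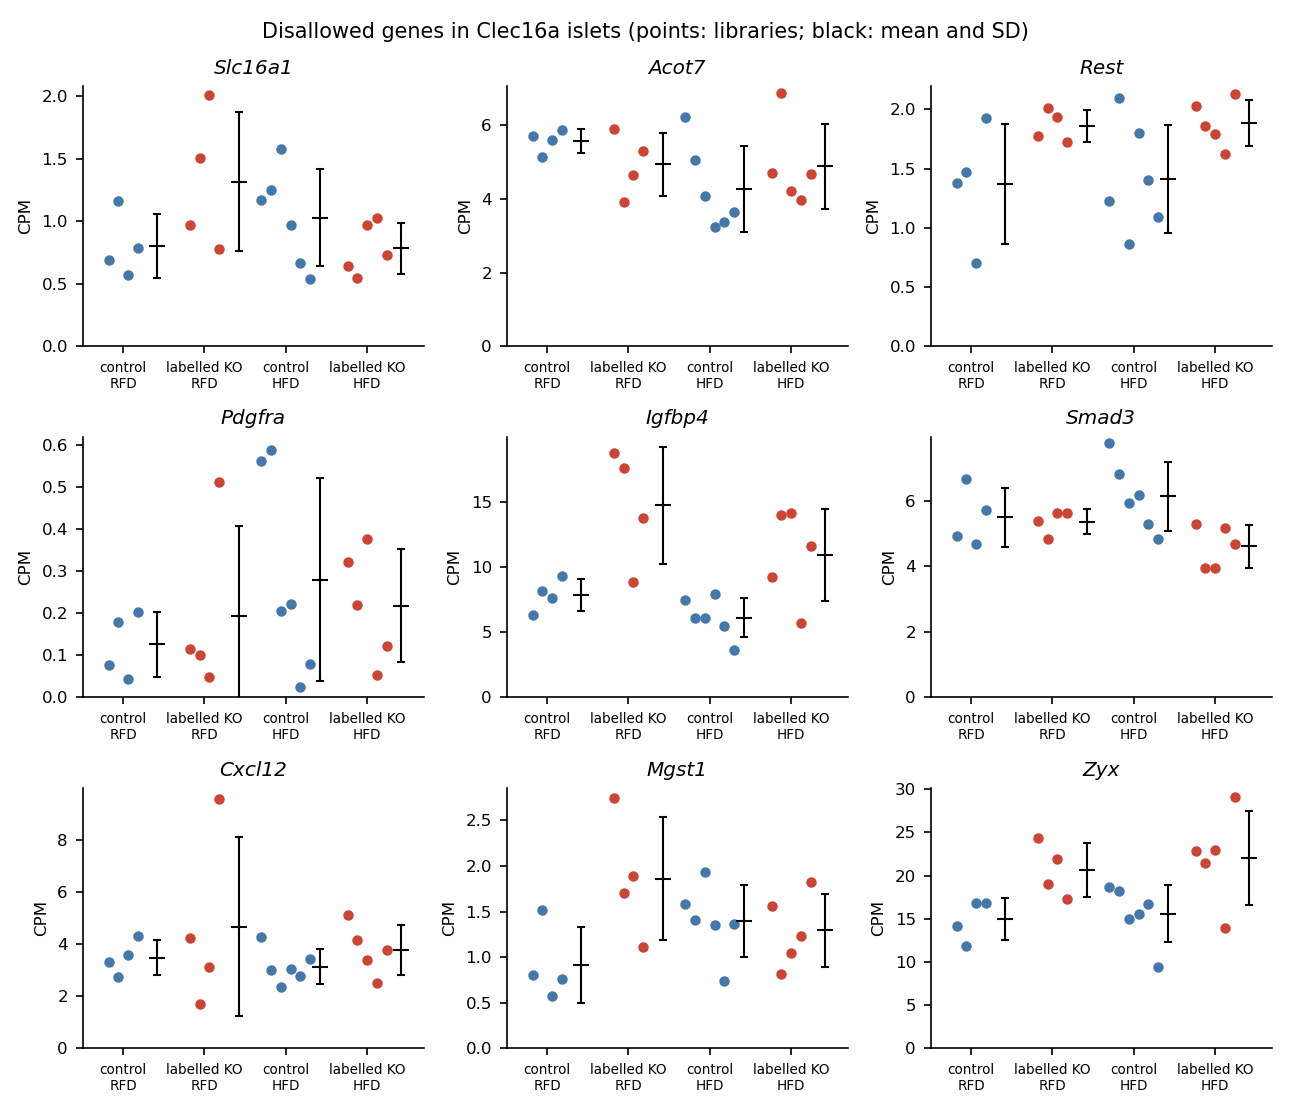
CPM of the 9 disallowed genes in Clec16a islets, 1 blue point per control library and 1 red point per library labelled Clec16a KO, on RFD and HFD; black marks give mean and SD, cut at 0. Igfbp4 and Zyx are higher in most red points, and 1 HFD library of the labelled KO lies among the controls for both.

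Igfbp4, the binding protein of insulin-like growth factors, lay at 6.34, 8.14, 7.63 and 9.30 CPM in RFD controls and at 18.8, 17.6, 8.83 and 13.7 in RFD libraries labelled KO. HFD controls ran from 3.66 over a median of 6.10 to 7.93 CPM, and the HFD libraries labelled KO lay at 9.26, 14, 14.2, 5.74 and 11.6. One labelled KO library on each diet, RFD replicate 3 and HFD replicate 4, fell within the control range. The log2 fold change was 0.90 on RFD (SE 0.27, edgeR adjusted p = 0.0473) and 0.84 on HFD (SE 0.23, adjusted p = 0.0267), with an interaction of -0.05 (SE 0.36, interval -0.75 to 0.64). Within sequencing lane 7 the difference of mean log2 values was 0.86 on RFD (3 labelled KO against 2 control) and 0.66 on HFD (2 against 3). Within lane 8 it was 1.05 on RFD (1 against 2) and 0.94 on HFD (3 against 3), so it pointed the same way in both lanes.

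Both Igfbp4 calls were close to the threshold. On RFD the call was lost without each of 7 of the 8 libraries, labelled KO replicate 3 being the exception, with adjusted p from 0.0733 to 0.125, and also with the lane in the fit (log2 0.91, adjusted p = 0.0560) and with the acinar marker score (log2 0.84, adjusted p = 0.0639), where the fold change was about as large. On HFD it was lost without control replicates 2, 5 or 6 or labelled KO replicates 2, 3 or 5, with adjusted p from 0.0501 to 0.0997. Without labelled KO replicate 4 the HFD value was 1.01 with an adjusted p of 0.00177. The mesenchymal score in the fit gave 0.84 on RFD (adjusted p = 0.0807) and 0.69 on HFD (adjusted p = 0.211).

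Endothelial markers were higher in most libraries with high Igfbp4. The 6 markers Pecam1, Cdh5, Kdr, Plvap, Esam and Tie1 summed to 332 to 358 CPM in RFD controls and 538 to 663 in RFD libraries labelled KO, and 5 of 6 rose. On HFD they summed to 305 to 400 CPM in controls and to 616, 628, 632, 355 and 561 in labelled KO, and 6 of 6 rose. HFD replicate 4, where Igfbp4 was in the control range, also had endothelial markers in the control range. RFD replicate 3 labelled KO did not pair in this way: its Igfbp4 of 8.83 CPM was in the control range, and its endothelial markers, at 538 CPM, were above it. All 6 markers were detected in every library. With the endothelial score in the fit, an alternative chosen after seeing the data, Igfbp4 turned to -0.44 on RFD (SE 0.32) and -0.26 on HFD (SE 0.26). That score also took the calls of all 17254 genes to 0 on both diets, so genotype label and endothelial level cannot be told apart by this fit.

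**Figure D4:**
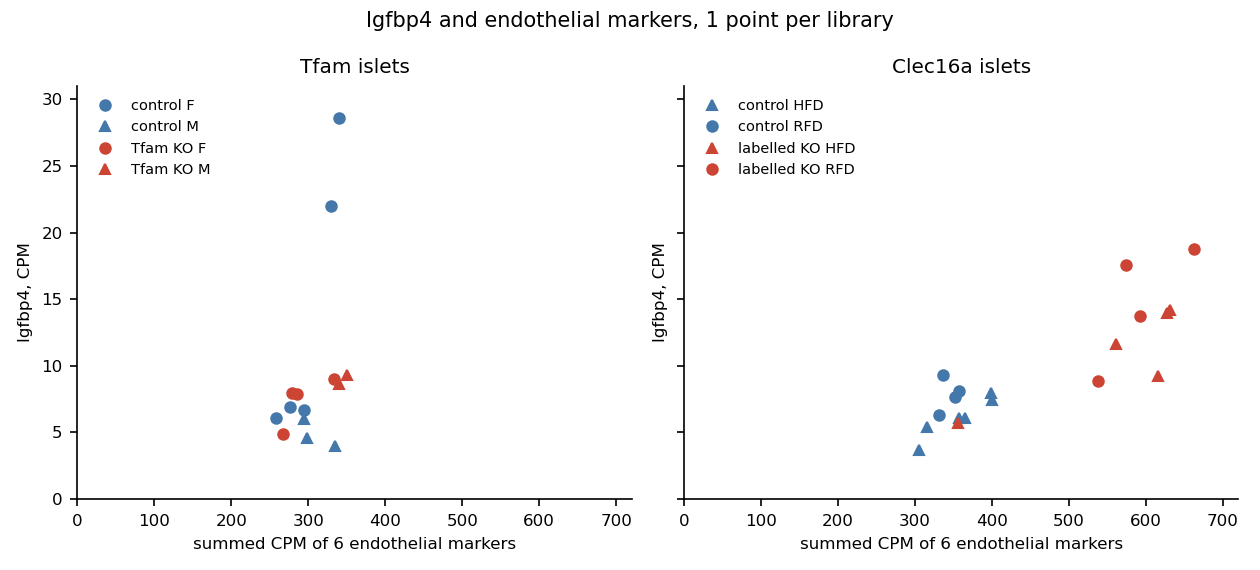
CPM of Igfbp4 against the summed CPM of 6 endothelial markers, 1 point per library, Tfam islets on the left and Clec16a islets on the right; circles are females or RFD, triangles males or HFD, red points Tfam KO or labelled Clec16a KO. In the Clec16a islets 8 of 9 red points lie at 538 CPM of the markers or more and the controls at 400 or less; in the Tfam islets the 2 controls with the highest Igfbp4 hold 339 and 330 CPM of the markers, the highest among control females, and within the range of the other Tfam groups.

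Zyx lay at 14.2, 11.8, 16.8 and 16.9 CPM in RFD controls and at 24.3, 19, 22.0 and 17.3 in RFD libraries labelled KO, with no overlap. The log2 fold change of 0.47 (SE 0.20) did not pass (edgeR adjusted p = 0.175). HFD controls ran from 9.46 over a median of 16.1 to 18.7 CPM, and the labelled KO lay at 22.8, 21.5, 22.9, 13.9 and 29.2, with replicate 4 again among the controls. The HFD value was 0.50 (SE 0.17, adjusted p = 0.0754), and without that library 0.63 with an adjusted p of 0.00767. DESeq2 called Zyx on HFD (adjusted p = 0.0456). With the endothelial score in the fit it was -0.18 on RFD and -0.03 on HFD.

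Smad3 differed little on RFD, with 4.91, 6.64, 4.67 and 5.72 CPM in control and 5.37, 4.82, 5.62 and 5.63 in labelled KO (log2 -0.04, SE 0.16, interval -0.36 to 0.28). On HFD it ran from 4.83 over a median of 6.04 to 7.75 CPM in control and lay at 5.30, 3.93, 3.95, 5.16 and 4.68 in labelled KO (-0.41, SE 0.14, adjusted p = 0.0736). It passed on HFD without labelled KO replicate 4 (adjusted p = 0.0389) or without control replicate 6 (0.0461). Mgst1 lay at 0.806, 1.52, 0.573 and 0.762 CPM in RFD controls and at 2.74, 1.71, 1.89 and 1.11 in labelled KO, so that the groups overlapped through 1 control library, replicate 2. Its RFD value was 0.98 (SE 0.35, adjusted p = 0.0938), and without that control 1.35 with an adjusted p of 0.0292. On HFD Mgst1 gave -0.10 (SE 0.30).

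The other members did not pass on either diet. Slc16a1 lay at 0.691, 1.16, 0.573 and 0.787 CPM in RFD controls and at 0.972, 1.51, 2.01 and 0.776 in labelled KO (log2 0.69, SE 0.37, adjusted p = 0.274), and gave -0.35 (SE 0.32) on HFD. Rest gave 0.42 (SE 0.28) on RFD and 0.40 (SE 0.24) on HFD, with labelled KO libraries in the narrow range of 1.62 to 2.13 CPM over both diets and controls between 0.706 and 2.10. Acot7 gave -0.18 (SE 0.21) and 0.19 (SE 0.18). Cxcl12 gave 0.44 (SE 0.35) on RFD, where 1 labelled KO library, replicate 4, held 9.58 CPM and the others 1.71 to 4.23, and without it -0.20. Pdgfra rested on 1 to 29 counts per library and gave 0.66 (SE 0.84) and -0.29 (SE 0.71). The 95% intervals ran from -0.99 to 2.30 and from -1.67 to 1.10.

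**Figure D5:**
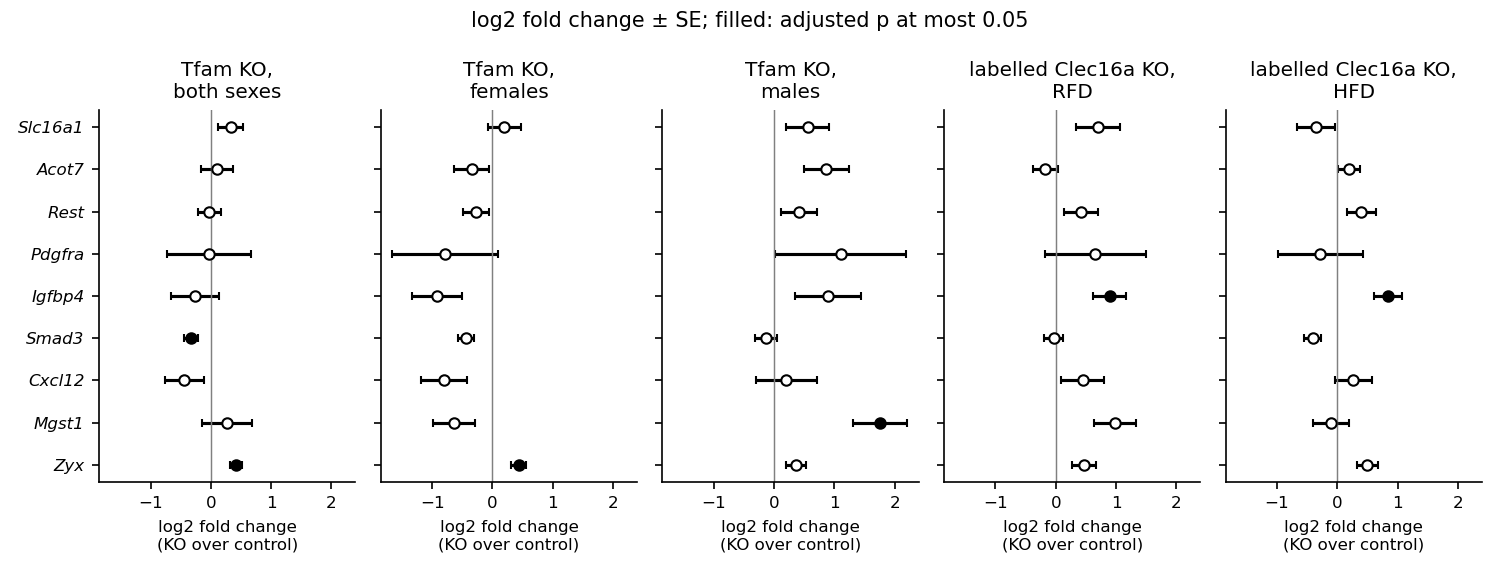
log2 fold change of KO over control with its SE for the 9 disallowed genes in 5 comparisons; filled points passed at an adjusted p of 0.05 or less. Igfbp4 is filled on both diets in the Clec16a islets, and Zyx lies to the right of 0 in all 5 panels.

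Other disallowed genes and genes from the members' pathways and families were read from the same lists in the Clec16a islets. Beside them, 7.52% of all genes were called on RFD and 9.57% on HFD, and no list is read as standing apart. Of the 14 other disallowed genes, Zfp36l1, which promotes mRNA decay, rose on RFD (0.77, SE 0.23, adjusted p = 0.0424), and Hsd11b1, which regenerates active glucocorticoid, on HFD (1.41, SE 0.38, adjusted p = 0.0233), from 0.379 ± 0.109 (n = 6) to 1.0 ± 0.248 CPM (n = 5). Lmo4 rose on HFD by 0.77 (SE 0.24, adjusted p = 0.0456). The medians of the list were 0.56 on RFD and 0.42 on HFD. Emb (embigin), a partner of monocarboxylate carriers, fell on both diets (-0.39 and -0.38), and Mpc1, a subunit of the mitochondrial pyruvate carrier, on HFD (-0.52, adjusted p = 0.00283). Acot13 fell on both (-0.47 and -0.61).

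Several genes in the lists for insulin-like growth factor signalling, PDGF signalling and CXCL12 receptors rose in islets labelled Clec16a KO. Of 8 tested genes of insulin-like growth factor signalling, Pappa2, a protease that cleaves binding proteins of the family, rose from 257 ± 23.7 (n = 4) to 576 ± 132 CPM (n = 4) on RFD (log2 1.17, SE 0.22, adjusted p = 0.00511). On HFD it rose from 159 ± 14.8 (n = 6) to 402 ± 153 CPM (n = 5), a log2 fold change of 1.34 (SE 0.19, adjusted p = 0.00034). Igfbp3 rose on both diets (0.70 and 0.71), and Igfbp5 on HFD (1.60, SE 0.30). The PDGF receptor Pdgfrb rose on both (0.70 and 0.64) and its ligand Pdgfd on RFD (0.65), of 5 genes. Ackr3, the scavenging receptor of CXCL12, rose on RFD (1.01, SE 0.28, adjusted p = 0.0332). Pdgfrb is also one of the 8 mesenchymal markers, of which 2 rose on RFD and 4 on HFD. Of the 10 genes repressed by REST, Scg2 (0.68 and 0.59) and Ptprn (0.60 and 0.49) rose and Gjd2 fell (-0.65 and -0.73) on both diets, and the corepressor Rcor2 fell (-0.77 and -0.70). On HFD Tgfb3 rose (0.82) and Smad2 fell (-0.26), of 9 TGF-β genes. For 8 zyxin partners the medians were 0.01 and 0.07, and for Mgst3, the 1 tested of its list, the values were 0.03 and 0.12.

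Whether the response depended on sex or diet was tested as an interaction. For Tfam and sex no member passed by edgeR, nor did any gene (0%), and 3 members (Acot7, Igfbp4 and Mgst1) had an unadjusted p under 0.05, against 6.23% of all genes. DESeq2 called Mgst1 (0.172% of all genes called). The members' median interaction was 1.0, beside a value near 0 for all genes, in the direction of a higher value in males. It was 0.37 without Tfam control female replicate 3 and 0.55 without Tfam KO male replicate 2, and 0.44 and 0.38 with the mesenchymal and endothelial scores in the fit. Marker lists of other cell types had positive median interactions too. These were 2.23 for acinar, 1.34 for duct, 0.89 for neural crest and 0.87 for mesenchymal markers. Alpha markers gave 0.62, macrophage 0.60, delta 0.43 and endothelial 0.32, while β-cell markers gave -0.15. The 14 other disallowed genes gave 0.76, so the members' median is not read as particular to them. For the Clec16a label and diet no member or gene passed (0%), 2 members (Slc16a1 at -1.05, SE 0.49, and Mgst1 at -1.09, SE 0.46) had an unadjusted p under 0.05, against 2.35% of genes, and DESeq2 called no member (0.116% of genes). For diet alone, no member passed by edgeR in control islets (0.0406% of genes passed) or in labelled KO islets (0.0116%), and none had an unadjusted p under 0.05 (5.64% and 5.48% of genes). DESeq2 called no member either (0.313% and 0.243% of genes). The closest values were Slc16a1 in labelled KO islets, -0.73 (SE 0.35, adjusted p = 0.912 by edgeR), and Acot7 in control islets, -0.39 (SE 0.19, adjusted p = 0.885), HFD less RFD.

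Genes most like each member were ranked by the lower of 2 Pearson correlations of log2 CPM less the group mean, over 14 Tfam and 19 Clec16a libraries. Libraries share depth and cell makeup, so these are descriptions. Igfbp4 was most like S1pr1 (0.82 and 0.77), Plvap (0.77 and 0.80) and Hdac7 (0.80 and 0.75), of which Plvap and S1pr1 are well known in endothelial cells. Zyx was most like Cdk5r2 (0.88 and 0.91), Rnf166 (0.83 and 0.85) and Rnf126 (0.79 and 0.87), the highest values among the members. Cxcl12 followed Bin2, Pstpip1 and Csf2rb (lower value 0.70 to 0.73), genes of blood cells, and Pdgfra followed C3, Ror2 and Il16 (0.69 to 0.79). Mgst1 was most like Dlg3, Degs2 and Klhdc7a (0.64 to 0.77), Acot7 like Tmem255b and Gfra2 (0.76 and 0.73), and Smad3 like 5031425E22Rik, Klhl36 and Mpzl3 (0.65 to 0.68). Rest (Xntrpc, Ccdc138 and Insm2, 0.51 to 0.52) and Slc16a1 (2700099C18Rik and Zfp993, both 0.55) had the lowest values.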

How the data were processed

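RNA-seq of mouse islets and liver was deposited as 1 table per library, with 151 bp paired-end reads per the labels' protocols. The count column holds whole read counts per gene by the authors. The authors' CPM equals the count scaled by the library total, and their TPM is given beside it, per the file headers. The submitters' processing notes name STAR 2.6.1b, RSEM 1.3.1, featureCounts, DESeq2 and build GRCm38, with no role or order. The annotation and the use of strand are not given in the sources used here.

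Counts were tested in edgeR 4.0.16 (R 4.3.3) with TMM scaling, its expression filter, the quasi-likelihood F-test and Benjamini-Hochberg adjustment over all genes of an experiment, called at 0.05 or less. The Tfam comparison over both sexes held sex as a term, and the others used 1 mean per group. An SE is the log2 fold change over the square root of F. A 95% interval was made from that SE with the normal distribution, so it is somewhat narrower than the F-test implies. CPM printed here is on TMM-scaled totals, with the experiments scaled apart. Alternatives were other scaling and filters, DESeq2 1.42.0, a replicate block, marker scores, sequencing lane, and leaving out each library. On simulated data for 2-fold changes, 80.6% were recovered for Tfam over both sexes, 59.1% in females, 53.7% in males, 53% on RFD and 68.2% on HFD. For 1.5-fold changes the values were 66.2%, 32.8%, 18.2%, 36.9% and 43.9% in the same order. The changed genes were drawn at random from all genes that passed the filter, not matched to the low levels of the members. They were also far fewer than the genes called in the data. For Tfam over both sexes 65, 67 and 65 of 19430 genes were changed by 1.5, 2 and 4-fold, against 4119 called. The adjustment was thus stricter in the simulation, and the recovered shares need not hold for the data. No 2 libraries of a group differed by as little as sampling noise.

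The members and gene lists were chosen with earlier results of these data known. Within a list, up to 4 genes that passed are named per comparison, in order of adjusted p, and up to 3 like genes per member; a few genes that this rule names are not reported here. The remaining 7 liver libraries of the 46 in the series are not analysed here.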

Additional observations from a re-analysis of the deposited data

Results flagged for a closer look

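Among 54 sets checked, each of 1 gene in 1 islet group, 4 held a library far from the rest, and chance gives about 5% of sets. Tfam control males (3 libraries) and Tfam KO males (2) were too few to be checked. Pdgfra stood at 0.889 CPM in Tfam control female replicate 3, with the other control females between 0.0356 and 0.109. Cxcl12 stood at 14.3 CPM in the same library, with the others between 2.67 and 4.87. Pdgfra stood at 0.512 CPM in RFD replicate 4 labelled Clec16a KO, with the others between 0.0472 and 0.114. Acot7 stood at 6.88 CPM in HFD replicate 2 labelled Clec16a KO, with the others between 3.98 and 4.70.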

How the results depend on the processing

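The number of members called changed with the setting, and the cause was not tested. For Tfam over both sexes it was 1 in place of 2 with no filter, the replicate block, the acinar or endothelial score, or no sex term, and 1 to 2 leaving out 1 library. In Tfam females it was 2 with DESeq2 size factors, at least 10 counts in every library, the DESeq2 Wald test or the mesenchymal score, 0 with the replicate block or only the compared groups, and 0 to 1 leaving out 1 library. In Tfam males it was 0 with the replicate block, the mesenchymal or the endothelial score, 3 with only the compared groups, and 0 to 1 leaving out 1 library. The sex interaction gave 1 by DESeq2. On RFD it was 0 with the replicate block, each marker score or the lane, and 0 to 1 leaving out 1 library. On HFD it was 2 by DESeq2, 0 with the replicate block, the mesenchymal or the endothelial score, and 0 to 3 leaving out 1 library.

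Replicate numbers were not used to pair the samples in the main fits. Over 6 same-numbered pairs in the Tfam islets the median correlation of deviations was 0.0653 (-0.0965 to 0.212). Over 25 pairs in the Clec16a islets it was -0.0163 (-0.253 to 0.307). These values cannot decide whether the samples were paired, since low correlations can also occur between paired samples. With the replicate block, Pdgfra over both sexes was 0.27.

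Of the log2 fold changes that turned sign, the called ones were Igfbp4 on both diets, with the endothelial score, and Smad3 in Tfam KO islets, on the TPM scale. With the mesenchymal score, Acot7 (-0.37) and Mgst1 (-0.41) turned for Tfam over both sexes, Pdgfra (-2.15), Igfbp4 (-0.11), Smad3 (0.070) and Cxcl12 (-1.22) in Tfam males, Pdgfra on RFD (-0.15) and Cxcl12 on HFD (-0.14). With the endothelial score, Acot7 turned over both sexes (-0.027), and in males Pdgfra (-0.27), Igfbp4 (-0.050) and Cxcl12 (-0.62). That score also turned Pdgfra (-3.51), Igfbp4 (-0.44), Cxcl12 (-0.55) and Zyx (-0.18) on RFD, and Acot7 (-0.27), Igfbp4 (-0.26), Cxcl12 (-0.52) and Zyx (-0.033) on HFD. With the acinar score, Pdgfra over both Tfam sexes was 0.051, Smad3 on RFD 0.058 and Pdgfra on HFD 0.15. Pdgfra was 0.063 with no sex term and, on HFD, 0.029 with the lane. On the TPM scale Smad3 in Tfam KO was 0.058.

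Leaving out 1 library, values ran across 0 for Tfam over both sexes in Acot7 (-0.013 to 0.31), Rest (-0.14 to 0.091), Pdgfra (-0.63 to 1.10), Igfbp4 (-0.41 to 0.045) and Mgst1 (-0.19 to 0.46). They did so for Pdgfra in females (-1.11 to 1.09) and males (-0.23 to 1.80). On RFD this held for Pdgfra (-0.70 to 0.999), Smad3 (-0.099 to 0.071) and Cxcl12 (-0.20 to 0.71), and on HFD for Pdgfra (-0.66 to 0.16) and Mgst1 (-0.25 to 0.015). Pdgfra is limited by its low counts.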
